A study of Mus musculus with 6 samples.

Results

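The genes of the MHC class II pathway and their master regulator Ciita were examined in mouse peritoneal macrophages, the phagocytes of the abdominal cavity. The 10 members were taken by gene symbol from tables of 23699 gene rows, of which 22163 were kept. All 10 passed the filter on low values. They are the classical chains H2-Aa, H2-Ab1 and H2-Eb1, the invariant chain Cd74, the DM genes H2-DMa, H2-DMb1 and H2-DMb2, the DO genes H2-Oa and H2-Ob, and Ciita. Poly-A mRNA was sequenced from cells of the strain C57Bl/6, either wild type (WT) or miR-221/222 -/Y, a knockout of an X-linked pair of microRNAs (KO). The naive groups were left untreated. The LPS groups received 1000 ng/ml lipopolysaccharide, a bacterial cell wall component, for 4 h. The tolerized groups received 10 ng/ml LPS for 15 h, a wash, a rest of 2 h and then 1000 ng/ml LPS for 4 h. Each of these 6 groups was 1 library, although the design text of the series speaks of triplicates, so no difference between single libraries had a replicate check.

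MHC class II molecules carry peptides of ingested proteins to the cell surface for CD4+ T cells. An alpha and a beta chain assemble on the invariant chain in the endoplasmic reticulum, endosomal proteases cut the invariant chain down to a fragment in the peptide groove, and DM exchanges that fragment for peptide while DO holds DM back. CIITA does not bind DNA itself: it docks on RFX, CREB and NF-Y proteins that sit on the X and Y boxes of class II promoters and switches these genes on, constitutively in B cells and dendritic cells and after interferon gamma in macrophages.

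The labelled cell type was visible in the macrophage markers. Lyz2, which encodes lysozyme, lay between 8538 and 45134 FPKM and Csf1r, the receptor of the macrophage growth factor, between 147.2 and 895.0 FPKM (sequenced fragments divided by transcript length and by library size). B cell genes were present too: 15 of 16 listed B cell markers reached 2 FPKM in a library, and their summed level lay between 365.1 and 969.1 FPKM. Of 12 dendritic cell markers 8 reached 2 FPKM (summed level 30.9 to 76.7 FPKM), with Flt3, a receptor that defines that lineage, at 0.65 FPKM or less in every library. The sums were 7.57 to 21.3 FPKM for 8 T and NK cell markers and at most 2.14 FPKM for 5 mesothelial markers. They were 12747 to 54367 FPKM for the pan-macrophage list, 163 to 771 FPKM for large peritoneal macrophages, 162 to 294 FPKM for small peritoneal macrophages and monocytes and 132 to 360 FPKM for neutrophils. Of 6 neutrophil markers only 3 reached 2 FPKM in a library, and S100a8 alone had 65.2 to 341 FPKM. In bulk RNA of this kind, fewer cells of a type and less RNA per cell cannot be told apart. The deleted microRNA genes gave no check of the labels, since Mir221 and Mir222 are listed at 0 in all 6 libraries, WT included, and libraries of poly-A mRNA do not measure such short RNAs.

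Stretches of 60 bases around the Y box core of 6 members are shown because members that hold this short core had different profiles over the libraries. They come from RefSeq promoter windows on GRCm38.p6, each 300 bases long (250 before to 50 after the annotated start), run 5′ to 3′ along the gene, and carry the Y box core ATTGG in capitals. Where an X1 core (a G, any 2 bases, AC, any 2 bases, then ATG) precedes it by 15 to 40 bases, that is in capitals too.
H2-Aa, chr17:34287857-34287916, minus strand: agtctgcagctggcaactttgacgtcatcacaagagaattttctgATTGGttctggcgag
H2-Eb1, chr17:34305763-34305822, plus strand: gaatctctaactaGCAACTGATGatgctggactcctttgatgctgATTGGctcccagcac
H2-DMb1, chr17:34153085-34153144, plus strand: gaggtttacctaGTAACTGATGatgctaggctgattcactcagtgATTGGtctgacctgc
H2-DMb2, chr17:34145114-34145173, plus strand: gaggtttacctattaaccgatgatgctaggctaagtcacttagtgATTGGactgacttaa
H2-Oa, chr17:34092291-34092350, plus strand: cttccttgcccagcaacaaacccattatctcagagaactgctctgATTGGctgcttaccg
H2-Ob, chr17:34238803-34238862, plus strand: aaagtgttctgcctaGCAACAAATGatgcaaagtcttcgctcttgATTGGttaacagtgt
The core began 43 bases before the start in H2-Oa, 48 in H2-Aa, 57 in H2-Ob, 59 in H2-Eb1, 61 in H2-DMb1 and 90 in H2-DMb2. Of 10 members 7 matched the table, and H2-Ab1, Cd74 and Ciita did not. A window of each of the 7 held the Y core on either strand, as did 37.4% of all 32851 windows of that length. The longer Y box CTGATTGG, which contains the core, was found for H2-Aa, H2-Eb1 and H2-Oa and in 4.1% of all windows. An X1 core was found for H2-Eb1, H2-DMb1, H2-Oa and H2-Ob and in 8.97% of all windows, and the X1 core followed by the Y core at the spacing above for H2-Eb1, H2-DMb1 and H2-Ob and in 0.152% (50 windows). That spacing was chosen after the sequences were seen. The H2-DMb1 and H2-DMb2 stretches were identical at 51 of 60 bases. A match describes letters only, and the absence of one says nothing about the factor.

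On mm9, the build of the deposited tables, 8 members lie in the class II region of chromosome 17. From the lowest coordinate up these are H2-Oa (chr17:34229324-34232179), H2-DMa (chr17:34272616-34275480), H2-DMb2 (chr17:34282361-34288040), H2-DMb1 (chr17:34290136-34297174), H2-Ob (chr17:34375850-34382853), H2-Ab1 (chr17:34400172-34406363), H2-Aa (chr17:34419696-34424716) and H2-Eb1 (chr17:34442812-34453619). Cd74 lies on another chromosome (chr18:60963503-60972306), as does Ciita (chr16:10480165-10527657). Each value covers the whole gene. The levels spanned a wide range: Cd74 was between the 15th and 56th most abundant row of a library, whereas Ciita ranked between 4318 and 7766. The deposited interval of a member reached from 0.864% of its value on either side (Cd74) to 18.0% (H2-Oa). Read as 2 standard errors of a count, these widths implied from 123 fragments (H2-Oa) to 53624 (Cd74). They cover counting error only.

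**Figure D1:**
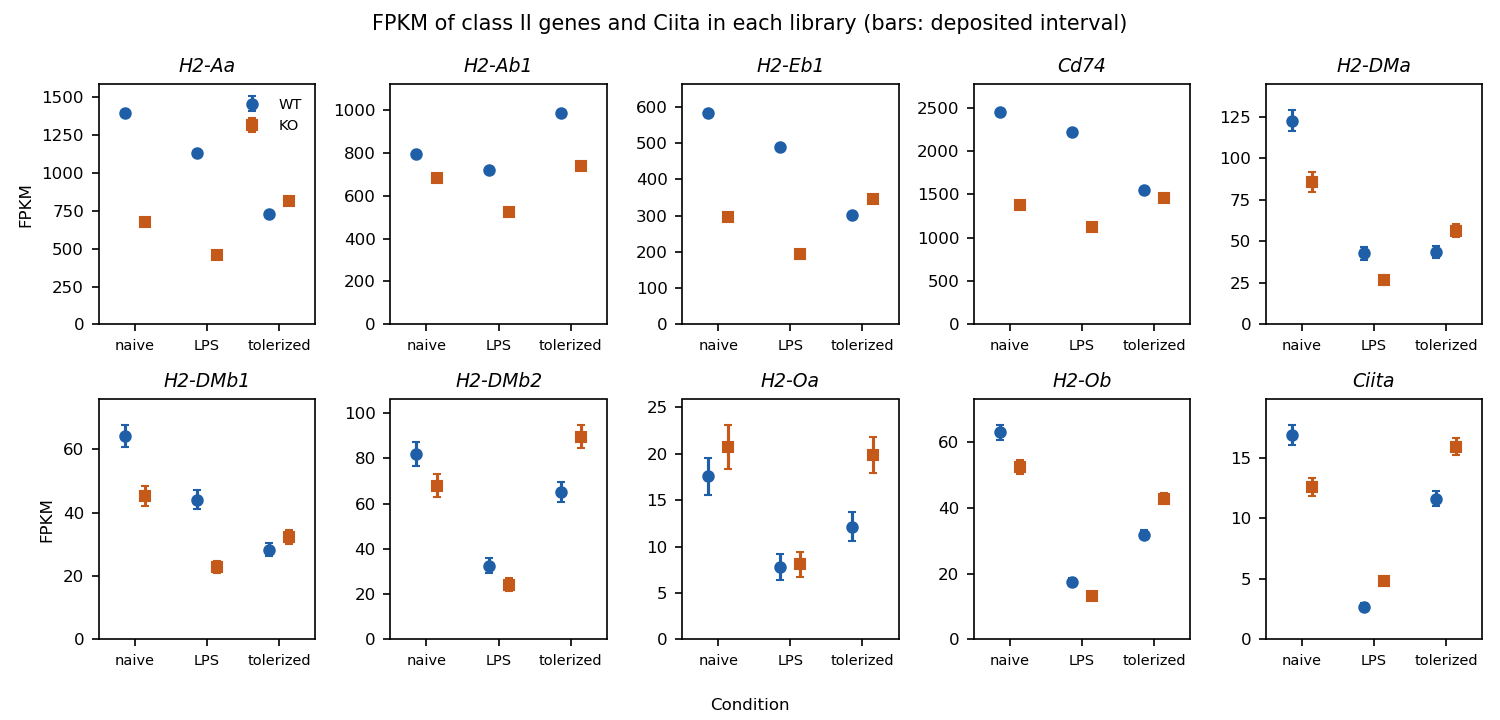
FPKM of the 10 members in each of the 6 libraries (circles WT, squares KO; the x axis gives the condition, each y axis starts at 0, bars are the deposited intervals and are hidden by the points of abundant genes). H2-Aa, H2-Eb1 and Cd74 were lower in KO than in WT naive and LPS cells, whereas Ciita, H2-Ob and H2-DMb2 were lowest in the LPS libraries of both genotypes.

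The classical chains and the invariant chain, which form the nascent class II complex, were abundant in every library and were highest in WT naive cells, H2-Ab1 excepted. H2-Aa, the alpha chain of the I-A molecule, stood at 1395, 1133 and 726 FPKM in WT cells, against 673, 460 and 817 FPKM in KO cells, where each triplet runs from naive through LPS to tolerized. H2-Eb1, the beta chain of I-E, stood at 583, 489 and 301 FPKM in WT and at 297, 194 and 346 FPKM in KO cells. Both genes thus ran downwards over the WT conditions, while in KO cells the tolerized library was the highest. Cd74, the invariant chain, had 2451, 2220 and 1547 FPKM in WT and 1377, 1126 and 1462 FPKM in KO cells. Its order was that of H2-Aa, except that the tolerized libraries changed places. H2-Ab1, the beta chain that pairs with H2-Aa, did not share this order: it had 794, 720 and 985 FPKM in WT and 684, 524 and 739 FPKM in KO cells, and the WT tolerized library was its highest. Among neighbours in these orders, the deposited intervals overlapped only between KO tolerized and WT LPS cells for H2-Ab1 and between WT tolerized and KO naive cells for H2-Eb1.

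Ratios within a library do not depend on how the library was scaled, and they held H2-Aa and H2-Eb1 together more closely than any other pair of members. The ratio of H2-Aa to H2-Eb1 was 2.39, 2.32 and 2.41 in WT cells, against 2.27, 2.38 and 2.36 in KO cells. Highest and lowest differed 1.06-fold, the smallest spread of all 45 pairs of members, while H2-Aa itself ranged 3.03-fold. The next closest pair by the SD of the log2 ratio was H2-Aa with Cd74, at 1.39-fold. H2-Aa and H2-Ab1, the partners of a single heterodimer, spread 2.38-fold. That ratio was 1.76 and 1.57 in WT naive and LPS cells but 0.737 in WT tolerized cells, and 0.985, 0.877 and 1.11 in the KO cells, so that the alpha chain exceeded the beta chain in 3 of 6 libraries. The E alpha partner of H2-Eb1 is a pseudogene in C57Bl/6 mice, and H2-Ea-ps is listed at 0 in 5 libraries and at 0.140 FPKM in KO tolerized cells, with an interval of 0 to 0.339.

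**Figure D2:**
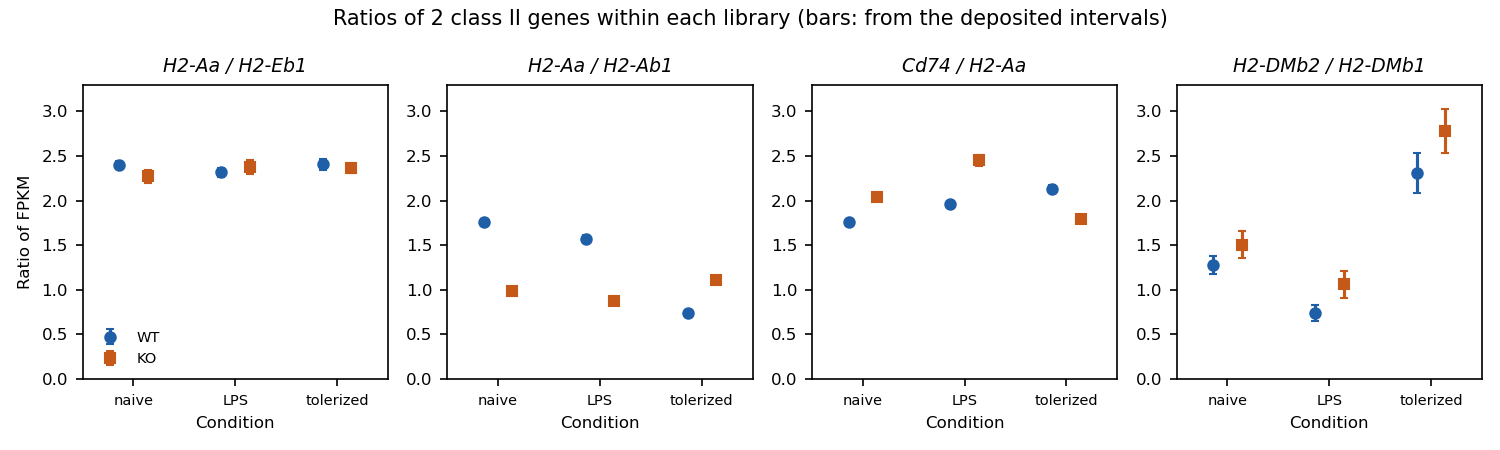
Ratio of the FPKM of 2 class II genes within each library (circles WT, squares KO; bars are computed from the deposited intervals; the y axis starts at 0). H2-Aa to H2-Eb1 stayed between 2.27 and 2.41, whereas H2-DMb2 to H2-DMb1 ran from 0.739 in WT LPS cells to 2.78 in KO tolerized cells.

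The DM genes, whose product edits the peptides in the groove, were less abundant than the classical chains in every library and differed from each other. H2-DMa, the alpha chain, had 122, 42.8 and 43.8 FPKM in WT and 85.7, 26.8 and 56.3 FPKM in KO cells. It was highest in the naive library of each genotype, and its WT LPS and WT tolerized intervals overlapped. H2-DMb1, a beta chain, had 64.2, 44.1 and 28.3 FPKM in WT and 45.1, 22.8 and 32.3 FPKM in KO cells. It ran downwards over the WT conditions, as H2-Aa did, and its KO LPS library was the lowest of all. H2-DMb2, its near copy and neighbour, had 82.0, 32.6 and 65.2 FPKM in WT and 68.0, 24.2 and 89.7 FPKM in KO cells. The LPS libraries were its lowest in both genotypes. The ratio of H2-DMb2 to H2-DMb1 was 1.28, 0.739 and 2.31 in WT cells, against 1.51, 1.06 and 2.78 in KO cells, so that H2-DMb2 was below its copy in WT LPS cells alone. Reads shared by such similar genes may have been split between them, and their single values are uncertain to that degree.

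The DO genes, best known from B cells, were lowest in the LPS libraries of both genotypes. H2-Ob, the beta chain, had 62.9, 17.5 and 31.9 FPKM in WT and 52.4, 13.1 and 42.7 FPKM in KO cells, with no overlap of neighbouring intervals. H2-Oa, the alpha chain, had 17.6, 7.77 and 12.1 FPKM in WT and 20.7, 8.08 and 19.9 FPKM in KO cells. Its intervals overlapped between the LPS libraries and among KO naive, KO tolerized and WT naive cells. The beta chain exceeded the alpha chain in every library, by a ratio of 1.62 (KO LPS) to 3.58 (WT naive).

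Ciita showed the widest relative range of all members, 6.31-fold. It had 16.9, 2.68 and 11.6 FPKM in WT and 12.6, 4.81 and 15.9 FPKM in KO cells. Both LPS libraries lay below the other 4, and the tolerized libraries were back among the naive ones: WT naive overlapped KO tolerized, and KO naive overlapped WT tolerized. WT LPS cells had 0.159 of the Ciita level of WT naive cells and KO LPS cells 0.382 of that of KO naive cells. The Ciita row joins 3 start sites, so its promoters, which are used by different cell types, cannot be told apart here. The abundant members ran differently from Ciita. The ratio of Cd74 to Ciita spread 9.02-fold over the libraries, the most of all 45 pairs, against 2.43-fold for H2-Ob to Ciita and 2.51-fold for H2-DMb2 to Ciita.

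Across both genotypes, LPS was tested against naive cells with limma on log2(FPKM + 1), with genotype as a term and Benjamini-Hochberg adjustment over 10137 genes. Of the 10 members 5 fell and none rose, and 6 had an unadjusted p under 0.05, as had 67.3% of all genes. H2-Ob fell by 1.85 on the log2 scale (SE 0.26, adjusted p = 0.0016), Ciita by 1.76 (SE 0.29, adjusted p = 0.0028), H2-DMa by 1.57 (SE 0.30, adjusted p = 0.0049), H2-DMb2 by 1.38 (SE 0.28, adjusted p = 0.0059) and H2-Oa by 1.17 (SE 0.23, adjusted p = 0.0051). All 5 were lower in the LPS than in the naive library of both genotypes. That share was near the background: 54.4% of all genes fell and 8.74% rose, and the all-gene median was -0.76 against a median of -0.96 for the members. Measured from the all-gene median, H2-Ob stood at -1.10, Ciita at -1.0, H2-DMa at -0.81, H2-DMb2 at -0.62 and H2-Oa at -0.41.

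The classical chains and Cd74 lay on the other side of that median. Their differences were -0.42 for H2-Aa (adjusted p = 0.44), -0.26 for H2-Ab1 (adjusted p = 0.49), -0.43 for H2-Eb1 (adjusted p = 0.40) and -0.22 for Cd74 (adjusted p = 0.67), none of which passed, and H2-DMb1 had -0.74 (adjusted p = 0.069). When the libraries were rescaled by the median of ratios, which brings the all-gene median close to 0, the signs of all these turned: H2-Aa had 0.43, H2-Ab1 0.59, H2-Eb1 0.42, Cd74 0.64 and H2-DMb1 0.09, again without a pass. Under that scaling 2 of the 10 members fell, H2-Ob (-1.03, adjusted p = 0.018) and Ciita (-1.02, adjusted p = 0.036), which were also the members called in all 14 alternatives. The direction of the classical chains with LPS thus depends on the scaling, whereas H2-Ob and Ciita had the lowest values of the members on both scales.

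In tolerized against LPS cells, which share the LPS libraries with the comparison above, 4 of 10 members rose and none fell, where 36.8% of all genes rose and 4.32% fell. The unadjusted p was under 0.05 for the same number of members, 4, and for 52.2% of all genes. Ciita rose by 1.66 (SE 0.29, adjusted p = 0.0102), H2-DMb2 by 1.41 (SE 0.28, adjusted p = 0.0128), H2-Ob by 1.23 (SE 0.26, adjusted p = 0.0154) and H2-Oa by 0.89 (SE 0.23, adjusted p = 0.0246). These were 4 of the 5 members that were lower with LPS, and each had its LPS library below its tolerized library in WT and in KO cells. H2-DMa was the other, with 0.54 (adjusted p = 0.19): it was 1.02 times its LPS level in WT and 2.10 times in KO tolerized cells. The members' median was 0.51, as was the all-gene median. After rescaling only Ciita rose (1.16, adjusted p = 0.049), and on the deposited scale Ciita missed the threshold only without the WT LPS library (adjusted p = 0.0545; 0.0057 to 0.0545 over the 14 alternatives). The number of members that rose was 2 without WT LPS and 1 without KO LPS or without KO tolerized cells.

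H2-Aa, H2-Eb1, Cd74 and H2-DMb1 differed in opposite directions in the 2 genotypes in this comparison, although after rescaling Cd74 and H2-DMb1 were lower in tolerized than in LPS cells in both. H2-Aa in tolerized cells was 0.640 of its LPS level in WT and 1.78 times that level in KO. H2-Eb1 was at 0.616 and 1.79, Cd74 at 0.697 and 1.30, and H2-DMb1 at 0.641 and 1.42. H2-Ab1 by contrast had more FPKM after tolerization than after LPS alone, 1.37-fold in WT and 1.41-fold in KO cells, with a fitted difference of 0.47 (adjusted p = 0.27). Its log2 differences of 0.45 in WT and 0.49 in KO cells lay below the all-gene medians of 0.47 and 0.56. After rescaling they were -0.10 and -0.16. With 1 library per group the difference between genotypes was not tested, and the fit counts an effect seen in 1 genotype as spread.

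The comparison of tolerized with naive cells uses the same libraries again, and 1 of 10 members passed. H2-DMa fell (by 1.03, SE 0.30, adjusted p = 0.0488) and no other member passed, where 19.7% of all genes fell and 7.41% rose. The median was -0.31 for the members and -0.22 for all genes. An unadjusted p under 0.05 was reached by 2 members and by 40.6% of all genes. H2-DMa lay in both genotypes below its naive level, at 0.358 of it in WT and 0.657 in KO cells, but after rescaling it no longer passed (-0.78, adjusted p = 0.11), and it passed in 4 of the 14 alternatives (adjusted p 0.0195 to 0.457). H2-DMb1 had -0.81 (adjusted p = 0.092) and H2-Ob -0.62 (adjusted p = 0.13). Ciita had -0.09 (adjusted p = 0.84) and H2-DMb2 0.03 (adjusted p = 0.94), both lower than naive in WT and higher in KO cells.

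**Figure D3:**
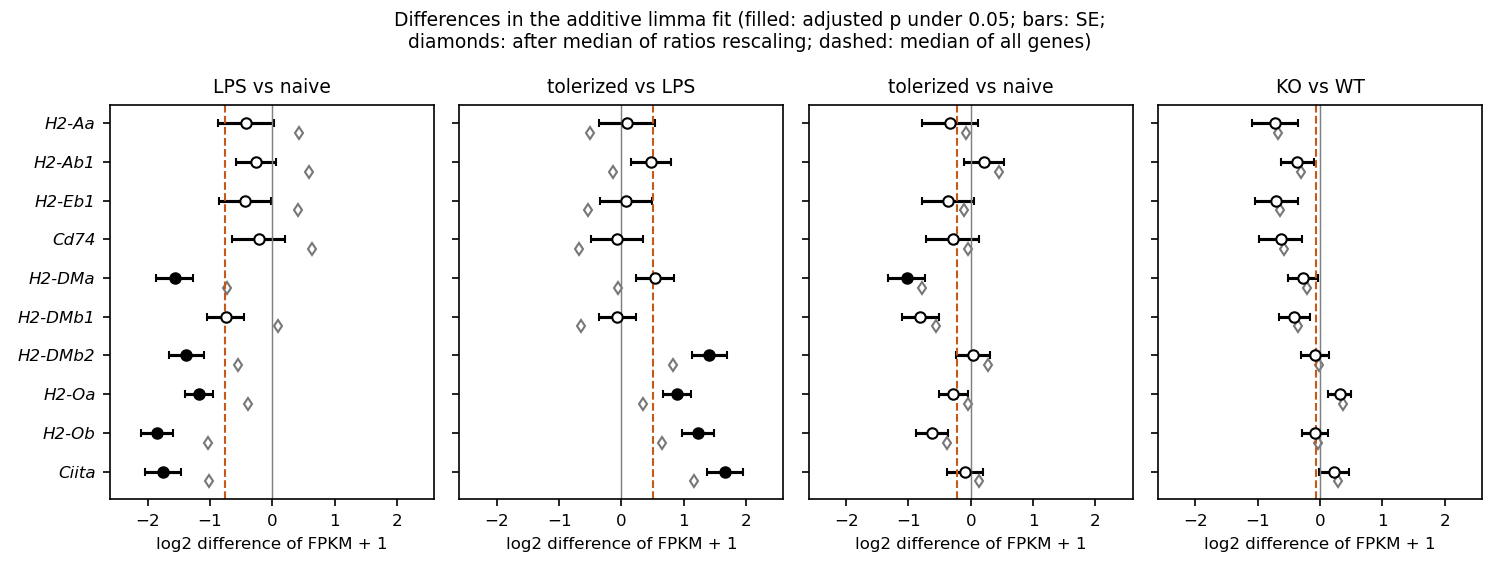
Log2 differences of FPKM + 1 of each member in the limma fit for 4 comparisons (circles with SE; filled where the adjusted p is under 0.05; diamonds after rescaling by the median of ratios; the dashed line is the median of all genes). Between LPS and naive cells the classical chains and Cd74 lay right of the all-gene median of -0.76, and H2-Ob and Ciita lay farthest left.

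B cell genes were measured in the same libraries. With LPS 7 of 14 tested B cell markers fell and none rose, near the 54.4% of all genes that fell, and their median was -0.70 against -0.76 for all genes. In tolerized against LPS cells 8 of 14 rose and none fell, where 36.8% of all genes rose, and the median was 0.83 against 0.51. After rescaling 4 fell and 3 rose with LPS, and 3 rose in tolerized cells. Cd79a, a subunit of the B cell receptor complex, had 222, 81.6 and 133 FPKM in WT and 171, 66.0 and 165 FPKM in KO cells (-1.40, adjusted p = 0.0052, with LPS). Ms4a1, which encodes the surface protein CD20, had 122, 81.6 and 120.3 FPKM in WT and 80.8, 79.7 and 146 FPKM in KO cells (-0.30, adjusted p = 0.39, with LPS, and 0.55 after rescaling), so not all B cell genes passed. The ratio of H2-Ob to Cd79a stayed between 0.199 and 0.305 and that of H2-DMb2 to Cd79a between 0.368 and 0.545. By contrast Ciita to Cd79a ran from 0.0328 to 0.0968 and H2-Aa to Cd79a from 3.93 to 13.9. The part of B cells in the values of H2-Ob, H2-Oa, H2-DMb2 and Ciita was not tested. Of 11 tested pan-macrophage genes 4 fell with LPS, among them Csf1r, and Cd14 rose by 1.89 (adjusted p = 0.0131), with a median of -0.84. Csf1r had 895, 147 and 257 FPKM in WT and 722, 201 and 221 FPKM in KO cells. Emr1, which encodes the macrophage marker F4/80, was instead highest in tolerized cells, with 431, 278 and 922 FPKM in WT and 393, 283 and 842 FPKM in KO cells.

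**Figure D4:**
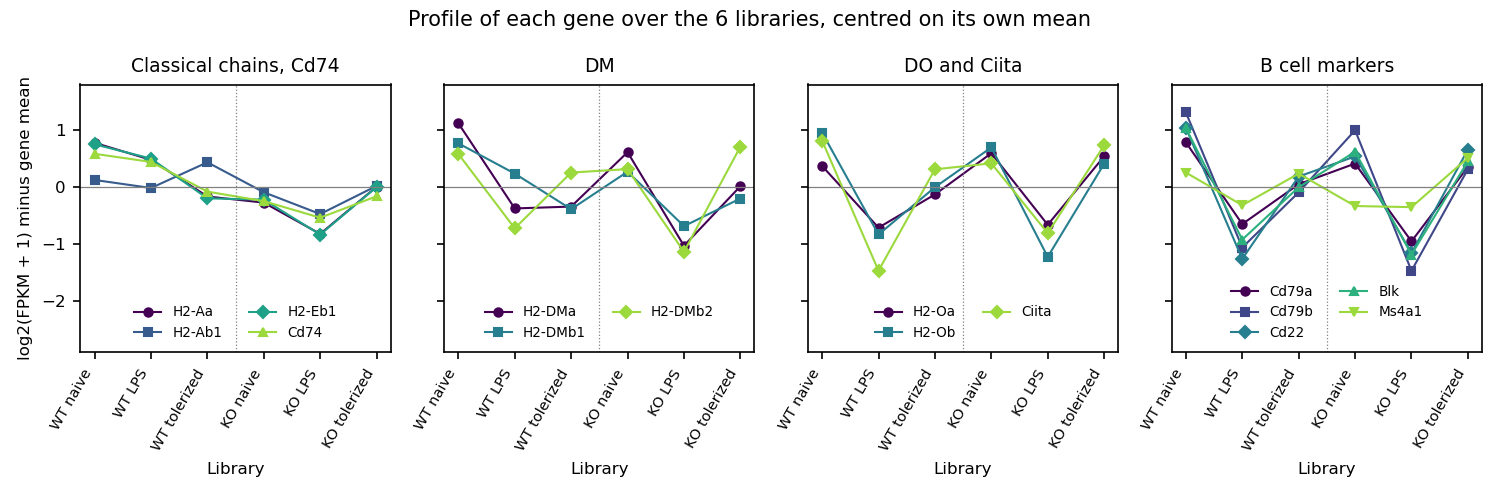
Profile of each gene over the 6 libraries as log2(FPKM + 1) minus the mean of the gene (WT libraries left and KO libraries right of the dotted line; lines join libraries only to guide the eye). H2-Aa and H2-Eb1 lie on each other, DO genes and Ciita dip in both LPS libraries, and so do Cd79a, Cd79b, Cd22 and Blk among the B cell markers.

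Between genotypes, H2-Aa, H2-Eb1 and Cd74 were lower in KO than in WT cells when naive or given LPS and lay near the WT level when tolerized, whereas H2-Ab1 was lower in all 3 conditions. H2-Aa in KO cells had 0.483 of its WT level when naive, 0.406 with LPS and 1.13 when tolerized. H2-Eb1 had 0.509, 0.396 and 1.15, and Cd74 0.562, 0.507 and 0.945. H2-Ab1 had the steadiest ratio of these 4 genes, 0.861, 0.728 and 0.750. The DM gene H2-DMb1 ran as H2-Aa did, at 0.703, 0.517 and 1.14, with overlapping intervals when tolerized. In naive cells 1 of 10 members, H2-Aa, was at least 2-fold lower in KO than in WT, as were 3.12% of the 10223 genes that reached 2 FPKM in either library. With LPS 2 members were, H2-Aa and H2-Eb1, against 3.04% of 8643 genes. Of the genes in these comparisons 2.79% had a log2 difference as low as that of H2-Aa in naive and 1.60% in LPS cells.

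The Ciita values ran otherwise. Ciita was at 0.744 of its WT level in naive, 1.79 in LPS and 1.37 in tolerized KO cells. H2-Oa was at 1.18, 1.04 and 1.64, with intervals that overlapped in the first and second of these. H2-DMa was at 0.700, 0.626 and 1.29, H2-DMb2 at 0.829, 0.744 and 1.38, and H2-Ob at 0.832, 0.748 and 1.34. H2-DMa, H2-DMb2 and H2-Ob, unlike Ciita, were thus lower in KO than in WT cells with LPS as well as when naive. They were higher only when tolerized. Over all 3 conditions no member passed in the limma test of KO against WT: 0 of 10 fell or rose, as for all genes, with 0% in each direction, and 0 of 10 had an unadjusted p under 0.05 against 6.97% of all genes. The fitted differences were -0.73 for H2-Aa (SE 0.37, adjusted p = 0.79), -0.70 for H2-Eb1 (SE 0.34, adjusted p = 0.77), -0.63 for Cd74 (SE 0.35, adjusted p = 0.80) and -0.36 for H2-Ab1 (SE 0.26, adjusted p = 0.83), and these 4 stayed negative in all 14 alternatives. That of Ciita was 0.23 (adjusted p = 0.86), and the median was -0.32 over the members and -0.06 over all genes. Without a tolerized library, of either genotype, the difference of H2-Aa was -1.17, still short of the threshold. Both fits take the genotype difference from the same naive and LPS libraries, with 1 residual degree of freedom, so they are not separate checks. Some other genes passed in these fits, and no member did. Beside these values, Cd209a, a lectin of dendritic cells and some macrophages, had 36.9 and 11.7 FPKM in WT naive and LPS cells and at most 0.0898 FPKM in the other 4 libraries. The summed dendritic cell markers were 67.0, 57.1 and 76.7 FPKM in WT and 30.9, 44.9 and 51.7 FPKM in KO cells. Without Cd209a these sums were 30.1, 45.4 and 76.7 FPKM in WT and 30.8, 44.9 and 51.6 FPKM in KO cells, so that of this list it was Cd209a that set the genotypes apart when naive or given LPS. Markers of peritoneal macrophage subsets also differed between the genotypes. Of 9 large peritoneal macrophage markers that reached 2 FPKM in either naive library, 5 were at least 2-fold lower in KO cells and 1 was at least 2-fold higher, and with LPS 5 of 8 were lower and 1 higher. Vsig4, a complement receptor of resident macrophages, had 158, 45.2 and 0.998 FPKM in WT and 1.87, 0.337 and 0.131 FPKM in KO cells. Timd4, a receptor for dying cells, went the other way, with 35.6, 62.1 and 14.7 FPKM in WT and 108, 140.3 and 29.1 FPKM in KO cells. Of 8 markers of small peritoneal macrophages and monocytes in naive cells, 3 were at least 2-fold lower in KO (Ccr2, Cx3cr1 and Mrc1) and 2 higher (Ly6c2 and Ly6c1). The summed level was 771, 589 and 163 FPKM in WT and 636, 354 and 251 FPKM in KO cells for the large macrophage list. For the small macrophage and monocyte list it was 233, 197 and 175 FPKM against 162, 179 and 294 FPKM. The part of these cells in the difference of the members was not tested.

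Of the factors that hold CIITA on class II promoters, the RFX subunits Rfxank and Rfxap moved most. Of 7 genes tested, 3 fell with LPS and none rose: Rfxank by 1.40, Rfxap by 1.19 and Creb1 by 0.77. Rfx5, the DNA-binding subunit, had -0.46 (adjusted p = 0.068). In tolerized against LPS cells 2 rose, Rfxank by 1.22 and Rfxap by 0.74, and against naive cells none passed. Of all genes 54.4% fell and 8.74% rose with LPS, and 36.8% rose and 4.32% fell in tolerized against LPS cells. The list's medians of -0.55 with LPS and 0.37 in tolerized against LPS cells lay nearer to 0 than the all-gene medians of -0.76 and 0.51. Rfxank had 5.44, 1.79 and 4.87 FPKM in WT and 5.54, 1.17 and 4.57 FPKM in KO cells. It was the only gene of the list to pass in the same direction after rescaling, in both comparisons, where 1 other gene rose with LPS.

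The genes that lead from interferon gamma to Ciita moved in both directions. Of 10 listed 8 were tested, and with LPS 2 rose, among them the transcription factor Irf1 (by 2.47), while the receptor chains Ifngr1 (-1.70) and Ifngr2 (-1.13) and Usf1 (-1.17) fell. Irf1 had 65.6, 315 and 73.3 FPKM in WT and 76.3, 503 and 63.6 FPKM in KO cells, highest in the LPS libraries where Ciita was lowest. In tolerized against LPS cells Ifngr2 rose by 1.01 and Irf1 (-2.53) and Irf2 (-1.12) fell, and against naive cells 1 rose, and Ifngr1 (-1.26), Irf2 (-1.13) and Usf1 (-0.88) fell. The medians were -0.03 with LPS and -0.19 in tolerized against LPS cells, beside -0.76 and 0.51 for all genes. With LPS 8.74% of all genes rose and 54.4% fell. The shares were 36.8% and 4.32% in tolerized against LPS cells, and 7.41% and 19.7% against naive cells. After rescaling 3 rose and none fell with LPS, and none rose and 3 fell in tolerized against LPS cells, so the falls of Ifngr1, Ifngr2 and Usf1 with LPS rest on the scale as deposited.

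Among genes known to restrain Ciita or class II, the largest differences were increases. Of 9 tested, 3 rose with LPS, Socs1 (4.63), the inhibitor of JAK signalling, Il10 (4.28), a deactivating cytokine, and Prdm1 (0.91), a repressor of Ciita, while the corepressor Sin3a fell by 1.48. In tolerized against LPS cells 2 rose, Sin3a by 1.26 and the histone methyltransferase Ezh2 by 0.87. Against naive cells 4 rose and none fell. The shares of all genes that rose in these comparisons were 8.74%, 36.8% and 7.41%, and 54.4%, 4.32% and 19.7% fell. Socs1 had 1.65, 119 and 124 FPKM in WT and 9.53, 142 and 81.3 FPKM in KO cells. Ciita in tolerized cells had 0.688 of its naive level in WT and 1.26 times that level in KO cells. A link between Socs1 and Ciita was not tested. The medians of the list were -0.01 with LPS, 0.21 in tolerized against LPS cells and 0.52 against naive cells, where all genes had -0.76, 0.51 and -0.22. After rescaling 5 rose and 1 fell with LPS, none rose and 2 fell in tolerized against LPS cells, and 4 rose against naive cells.

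Of 10 endosomal enzymes and inhibitors that act on antigen or the invariant chain, 3 fell with LPS and none rose, a smaller share than the 54.4% of all genes: cathepsin D (Ctsd, by 2.02), the thiol reductase Ifi30 (by 1.62) and cathepsin H (Ctsh, by 1.29). Ctss, the main protease of the invariant chain, had -0.82 (adjusted p = 0.16), and its level was 3966, 2090 and 1166 FPKM in WT and 3146, 1926 and 1908 FPKM in KO cells. Ctsh rose by 1.11 in tolerized against LPS cells, and Ctsd (-1.99) and Ifi30 (-1.54) remained below the naive level. The medians were -0.91 with LPS, 0.06 in tolerized against LPS cells and -0.80 against naive cells, beside -0.76, 0.51 and -0.22 for all genes. After rescaling none of the 10 fell and 1 rose with LPS, none passed in tolerized against LPS cells, and 1 fell against naive cells.

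Regulators of class II at the surface had 5 genes tested. Cd83, which protects class II from ubiquitination, rose with LPS by 2.73 and stood 2.21 above naive in tolerized cells. It had 34.3, 216 and 122 FPKM in WT and 19.7, 148 and 126 FPKM in KO cells. The ubiquitin ligases that take class II off the surface went the other way: March8 fell by 1.40 and March1 by 1.04 with LPS, and in tolerized against LPS cells March1 rose by 1.25 and March8 by 0.86. After rescaling Cd83 still rose with LPS and 1 gene fell, whereas none rose and 2 fell in tolerized against LPS cells. The list's medians were -0.72 with LPS and 0.20 in tolerized against LPS cells (all genes -0.76 and 0.51). Cd9, a tetraspanin, fell by 1.17 in tolerized against LPS cells and by 1.89 against naive cells. Of 4 other genes of the locus 1 was tested. H2-Eb2, a paralog of H2-Eb1 at 6.52 to 28.1 FPKM, fell by 1.55 with LPS (adjusted p = 0.0030) and rose by 1.25 in tolerized cells (adjusted p = 0.015), whereas H2-Eb1 itself had -0.43 and 0.07. After rescaling H2-Eb2 passed with LPS (-0.76, adjusted p = 0.048) but not in tolerized cells (0.70, adjusted p = 0.098). No gene of these lists passed between KO and WT.

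Profiles were also compared by the root mean square distance of centred log2(FPKM + 1) over the 6 libraries, as a description. Nearest to the mean profile of H2-Aa, H2-Ab1, H2-Eb1 and Cd74, among 7301 other genes that reached 10 FPKM, were Heca (0.096), Styx (0.141), Snhg12 (0.145), Zmynd15 (0.151), Srsf5 (0.163), Cdk17 (0.167), Arfrp1 (0.168) and Pcnp (0.169). Heca had 24.1, 18.9 and 16.0 FPKM in WT and 12.3, 7.84 and 14.9 FPKM in KO cells. Of the other members H2-DMb1 lay nearest (0.277, at rank 242 against those genes) and Ciita farthest (0.863). H2-Ab1, itself part of the mean, lay at 0.308, at rank 449. Nearest to Ciita among 10576 genes that reached 2 FPKM were Lrrcc1 (0.085), Pdk1 (0.116), the lymphoid factor Ikzf3 (0.128), Depdc5 (0.146), Ern1 (0.149), Ddi2 (0.151), Nsd1 (0.159) and Foxn3 (0.162). Ikzf3 had 28.5, 4.64 and 23.4 FPKM in WT and 22.9, 8.11 and 31.0 FPKM in KO cells. The B cell receptor inhibitor Cd22 lay at 0.204 and Cd79a at 0.388 from Ciita. Among the members H2-DMb2 (0.348), H2-Ob (0.383) and H2-Oa (0.419) were nearest to Ciita, at ranks 505, 787 and 1152 of the 10576 genes. H2-DMa followed at 0.622, and the classical chains and Cd74 lay at 0.761 to 0.928.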

How the data were processed

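Poly-A libraries of total RNA were made with a TruSeq kit, per the labels' protocols. The tables the authors deposited give FPKM with a lower and an upper bound per gene, per the file headers, 1 table to a library. The submitters' processing notes name bcl2fastq 1.8.4, TopHat, Cufflinks and the build mm9. For TopHat and Cufflinks the version was not given in the sources used here, and neither was the annotation or any pooling of triplicates.

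Of 23699 rows, those not marked OK in every library (349), 712 rows whose symbol occurs repeatedly and 801 small RNA rows were left out, with some rows in more than 1 of these sets, and 22163 were kept. Kept FPKM summed to 555495 to 657570 per library. The scale of the fit was log2(FPKM + 1), which understates the differences of low genes. Ratios and fractions between 2 libraries are of FPKM itself. Genotype plus condition was fitted by limma 3.58.1 (R 4.3.3; two-sided, eBayes with trend) in 10137 genes that reached 2 FPKM in 2 or more libraries. Adjusted p-values are Benjamini-Hochberg over these genes, with a threshold of 0.05, and "rose" and "fell" are used only past it. Residual degrees of freedom were 2 and prior ones 4.2. Each condition has 2 libraries and each genotype 3. The labels do not say whether libraries came from separate animals or cultures, so p-values measure only the spread between these samples. Read counts were not used here.

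For rescaling, the FPKM of a library were divided by the median of their ratios to the geometric mean profile. From naive through LPS to tolerized, these factors were 1.31, 0.750 and 1.10 for WT, and 1.29, 0.688 and 1.08 for KO cells. Other alternatives were pseudocounts of 0.1 and 5, no filter or a filter of 10 FPKM, upper quartile rescaling, eBayes without trend, a fit without the other factor, and leaving out each library.

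The members and gene lists were chosen with earlier results of these data known. All members are named. Of each pathway list, up to 4 genes with the largest differences past the threshold in a comparison could be named, and always Irf1, Rfx5 and Ctss. Of marker lists the 3 most abundant genes, Cd79a, Flt3 and Csf1r could be named, and by likeness of profile the nearest 8 genes. Some genes named by this rule are not reported here. Cd22, Cd209a, Cd79b, Blk, H2-Ea-ps, Emr1, Cd14, Vsig4, Timd4, Ccr2, Cx3cr1, Mrc1, Ly6c1, Ly6c2, the dendritic cell sum without Cd209a and the levels of Heca, Ikzf3, Rfxank, Socs1 and Cd83 were chosen after their values were seen. The promoter windows are on GRCm38.p6 and the tables on mm9, and coordinates were not converted.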

Additional observations from a re-analysis of the deposited data

Results flagged for a closer look

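Some members moved in opposite directions in WT and KO cells, with the deposited intervals of the libraries apart in both genotypes. Each group was 1 library, so these differences were not tested, and the intervals cover counting error only. From LPS to tolerized cells the log2 difference of H2-Eb1 was 1.53 greater in KO than in WT cells (0.84 against -0.70), that of H2-Aa 1.47 (0.83 against -0.64), that of H2-DMb1 1.11 (0.48 against -0.62) and that of Cd74 0.897 (0.38 against -0.52). After rescaling by the median of ratios, Cd74 (-0.28 and -1.07) and H2-DMb1 (-0.15 and -1.17) were lower in tolerized cells of both genotypes, and H2-Aa and H2-Eb1 kept opposite signs. From naive to tolerized cells the differences between KO and WT were 1.22 for H2-Aa (0.28 against -0.94), 1.17 for H2-Eb1 (0.22 against -0.95), 0.821 for Ciita (0.32 against -0.50), 0.751 for Cd74 (0.09 against -0.66) and 0.720 for H2-DMb2 (0.39 against -0.33). These 5 kept opposite signs after rescaling. Both comparisons use the same tolerized libraries.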

How the results depend on the processing

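Limits of these data are the single library per group, the scale of FPKM and near copies such as H2-DMb1 and H2-DMb2. The fewest fragments behind a member value were about 123, in H2-Oa of WT LPS cells, so depth limits H2-Oa most. Of 40 member results (10 members in 4 comparisons) under 14 alternatives, none of the 10 called differences reversed in 140 values, and 26 of these 140 missed the threshold. Members that fell with LPS numbered 2 after rescaling by the median of ratios instead of 5, and 5 to 6 when a library was left out. In tolerized against LPS cells, 1 rose after that rescaling instead of 4, and 1 to 4 without a library. In tolerized against naive cells the single call gave way to 0 with a pseudocount of 0.1, without a filter, with the median of ratios, with the upper quartile and without the genotype term, and 0 to 2 passed without a library. No member passed between KO and WT under any of these. Over all genes, rescaling by the median of ratios changed the counts with LPS to 2297 up and 2300 down (from 886 and 5511), in tolerized against LPS cells to 836 and 943 (from 3733 and 438), and in tolerized against naive cells to 953 and 1085 (from 751 and 2002). The upper quartile gave 1613 and 3201, 1649 and 645, and 943 and 1218. Between KO and WT, 0 genes passed with all libraries, but some passed without WT or without KO tolerized cells. Those fits both rest on the same naive and LPS libraries. Uncalled values reversed 43 times. With the median of ratios these were, for LPS against naive cells, H2-Aa 0.43, H2-Ab1 0.59, H2-Eb1 0.42, Cd74 0.64 and H2-DMb1 0.0905, for tolerized against LPS cells H2-Aa -0.51, H2-Ab1 -0.13, H2-Eb1 -0.53 and H2-DMa -0.0505, and for tolerized against naive cells Ciita 0.14. With the upper quartile they were, in the same order of comparisons, H2-Aa 0.15, H2-Ab1 0.31, H2-Eb1 0.14 and Cd74 0.35, then H2-Aa -0.26 and H2-Eb1 -0.28, then Ciita 0.11. Leaving out a library moved LPS against naive from -0.85 to 0.0057 for H2-Aa, from -0.91 to 0.042 for H2-Eb1 and from -0.48 to 0.045 for Cd74. It moved tolerized against LPS from -0.58 to 0.76 for H2-Aa, from -0.61 to 0.74 for H2-Eb1, from -0.48 to 0.34 for Cd74 and from -0.52 to 0.38 for H2-DMb1. It moved tolerized against naive from -1.005 to 0.34 for H2-Aa, from -1.04 to 0.31 for H2-Eb1, from -0.70 to 0.12 for Cd74, from -0.36 to 0.43 for H2-DMb2 and from -0.56 to 0.38 for Ciita. It moved KO against WT from -0.34 to 0.094 for H2-DMb2 and from -0.33 to 0.076 for H2-Ob. The cause was not tested. No paired analysis was possible because each group was 1 library and the labels give no replicate numbers.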
